A study of Arabidopsis thaliana with 2 samples.

Results

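The 5 genes described here belong to families whose enzymes make volatile terpenes or green leaf volatiles in Arabidopsis thaliana: the terpene synthase genes TPS03 (AT4G16740), TPS02 (AT4G16730) and TPS04 (AT1G61120), the hydroperoxide lyase gene HPL1 (AT4G15440) and the acetyltransferase gene CHAT (AT3G03480). In the ecotype used, TPS02 and HPL1 are annotated as encoding no working enzyme. They were picked by locus from the authors' table of transcripts that were higher in WRKY75RNAi than in Col-0, and where a locus had several listed models, the most-read one stands for it. They are 5 of 1231 loci in that table and of 2159 loci in the tables of higher and lower transcripts together. All 5 were found. Because they were chosen for being higher, their values are a description, and no test was made of them.

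Polyadenylated RNA was sequenced from leaves 3 and 4 of 28-day-old plants, with 1 library from WRKY75RNAi plants, in which RNA interference targets the transcription factor gene WRKY75, and 1 library from the wild type. Both are in the Col-0 ecotype. The sources used here do not give the promoter of the RNAi transgene, the number of independent lines or the number of plants pooled. The library totals behind the deposited values were 38042482 reads for WRKY75RNAi and 41328980 reads for Col-0. The targeted gene, WRKY75 (AT5G13080), had 476 reads in WRKY75RNAi and 1699 reads in Col-0, a log2 ratio of -1.72. A gene found in neither table is called not listed; its levels are unknown and need not be equal.

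Terpene synthases cut the diphosphate group from a prenyl diphosphate and turn the remaining chain into a terpene hydrocarbon or alcohol. The building blocks come from the methylerythritol phosphate route in plastids and from the mevalonate route in the cytosol. Green leaf volatiles, the smell of cut leaves, arise from linolenic acid: a lipoxygenase adds oxygen, hydroperoxide lyase splits the chain, a reductase turns the aldehyde into an alcohol, and CHAT acetylates the alcohol to an ester. The lipoxygenase product is also the start of jasmonate synthesis, and jasmonate and insect feeding are known to induce many volatile genes in leaves.

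Of these genes, 2 carry changes in this ecotype. According to the RefSeq annotation of the TAIR10.1 assembly, TPS02 has a 2-base insertion in Col that shifts the reading frame, so that no working synthase is made, whereas the Ws ecotype has a plastid enzyme that makes (E)-beta-ocimene. The annotation also notes a deletion in the first exon of HPL1 in Col that leaves a truncated lyase without activity. TPS03 of Col encodes a cytosolic (E,E)-alpha-farnesene synthase, and TPS04 the geranyllinalool synthase for the homoterpene TMTT. CHAT is known as the enzyme that makes (Z)-3-hexenyl acetate. The labels terpene and green leaf volatile therefore hold for the gene families, while transcripts of TPS02 and HPL1 in these plants do not stand for working enzymes by that annotation. The end of the first coding exon is shown for TPS02 (chr4:9403119-9403163, plus strand) and for its neighbour TPS03 (chr4:9407960-9408002, plus strand), from TAIR10.1, because this stretch holds 2 bases more in TPS02.
TPS02: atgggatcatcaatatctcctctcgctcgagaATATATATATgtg
TPS03: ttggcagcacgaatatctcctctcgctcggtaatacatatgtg
The capitals mark the run of AT repeats within which the 2 extra bases of TPS02 can be placed. Left out anywhere in this run, they leave 35 of 43 bases identical to TPS03, against 21 of 43 when the stretches were lined up from the exon end with no gap. The annotation note places its insertion 184 nucleotides downstream of the start codon, counted from a start that is not the annotated one: the run begins 32 bases after the annotated start. An ATG at position 9402967 of chromosome 4, 152 bases before the annotated start, has exactly 184 bases from its first base up to the run. Read from that ATG through the annotated exons, the frame held 65 codons before a stop, and 589 with 2 bases of the run left out. Read from the annotated start, it held 539 codons before a stop, and 17 with the 2 bases left out. The Col sequence thus keeps a long frame from the annotated start, and whether a protein is made from it was not tested.

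The stretches upstream of the annotated starts are shown because the 5 genes were listed in the same direction. Each is read from TAIR10.1 in the direction of its gene and ends 1 base before the annotated start. They lie at chr4:9407361-9407610 (plus strand) for TPS03, chr4:9402648-9402897 (plus strand) for TPS02, chr1:22523385-22523634 (plus strand) for TPS04, chr4:8835118-8835367 (plus strand) for HPL1 and chr3:829927-830115 (minus strand) for CHAT. The stretch of CHAT stops after 189 bases, where the next gene begins, and the others are 250 bases long. Capitals mark TTGAC, the core of the W-box that WRKY proteins bind, which in full is TTGAC followed by c or t. The marked matches are followed by a in TPS03 and TPS02 and by g in HPL1, so none is a full W-box.
TPS03: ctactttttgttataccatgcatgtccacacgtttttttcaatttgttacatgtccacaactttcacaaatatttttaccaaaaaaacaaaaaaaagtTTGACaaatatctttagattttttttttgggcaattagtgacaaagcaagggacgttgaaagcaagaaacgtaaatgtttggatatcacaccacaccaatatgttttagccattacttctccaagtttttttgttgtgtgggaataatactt
TPS02: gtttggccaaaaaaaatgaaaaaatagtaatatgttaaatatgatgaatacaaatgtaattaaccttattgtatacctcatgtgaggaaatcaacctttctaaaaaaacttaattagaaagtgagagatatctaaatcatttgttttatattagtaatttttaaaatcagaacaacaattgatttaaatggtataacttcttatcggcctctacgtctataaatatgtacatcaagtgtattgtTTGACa
TPS04: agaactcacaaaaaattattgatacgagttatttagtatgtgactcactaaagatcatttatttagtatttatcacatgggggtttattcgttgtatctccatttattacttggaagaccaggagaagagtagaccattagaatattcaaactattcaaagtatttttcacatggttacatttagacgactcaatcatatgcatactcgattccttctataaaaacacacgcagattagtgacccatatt
HPL1: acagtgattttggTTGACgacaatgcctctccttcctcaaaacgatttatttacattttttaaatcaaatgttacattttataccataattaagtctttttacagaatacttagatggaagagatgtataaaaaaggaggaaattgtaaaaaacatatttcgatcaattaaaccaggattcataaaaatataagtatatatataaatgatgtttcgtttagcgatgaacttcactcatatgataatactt
CHAT: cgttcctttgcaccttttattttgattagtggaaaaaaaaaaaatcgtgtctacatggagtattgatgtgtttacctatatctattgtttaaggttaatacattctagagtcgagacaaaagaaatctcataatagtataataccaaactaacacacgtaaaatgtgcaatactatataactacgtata
In windows of 250 bases before to 50 bases after the start, searched on both strands, TTGAC was present in 3 of the 5 genes, at position -152 in TPS03, -6 in TPS02 and -237 in HPL1, counted back from the annotated start. The same 5 letters were present in 50.5% of 27443 promoters of protein-coding genes. CACGTG, the G-box that MYC proteins of jasmonate signalling bind, was present in 0 of the 5 and in 7.68% of all promoters. With CACGTG absent, the motifs did not overlap in these windows, and a match of letters is not a binding site.

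TPS03, TPS02 and CHAT were close to silent in Col-0 and clearly counted in WRKY75RNAi, HPL1 was present in both libraries, and TPS04 was abundant in both. TPS03 (chr4:9407611-9411140) had 679 reads in WRKY75RNAi and 22 reads in Col-0, or 5.74 and 0.171 RPKM (reads scaled by deposited gene length and library total). For TPS03 that length was 3109 bases, against 2206 spliced bases and a genomic span of 3530. This was a 33.5-fold difference, a log2 ratio of 5.07 with a 95% interval of 4.46 to 5.75. Intervals of ratios were computed by the exact Clopper-Pearson method from the reads of both libraries and cover counting error only, and reads amplified by PCR are not independent molecules. With 1 library per genotype no ratio has a replicate check. A second listed model of TPS03, AT4G16740.2, which spans less of the gene, had 363 reads in WRKY75RNAi and 8 reads in Col-0.

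TPS02 (chr4:9402898-9406136) had 294 reads in WRKY75RNAi and 14 reads in Col-0, or 2.49 and 0.109 RPKM. Its log2 ratio was 4.51 (interval 3.74 to 5.40), and the Col-0 level was the lowest of the 5 on the deposited lengths. The frame-shifted gene was thus listed as higher together with its intact neighbour. TPS02 and TPS03 lie on the same strand 1474 bases apart and their coding sequences are 70.7% identical over 1564 aligned bases. The longest run of bases that their spliced transcripts share is 20. Of the exonic stretches of 36 bases in each of the 5 genes, 0 occur a second time in the genome, and no annotated gene overlaps any of the 5.

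**Figure D1:**
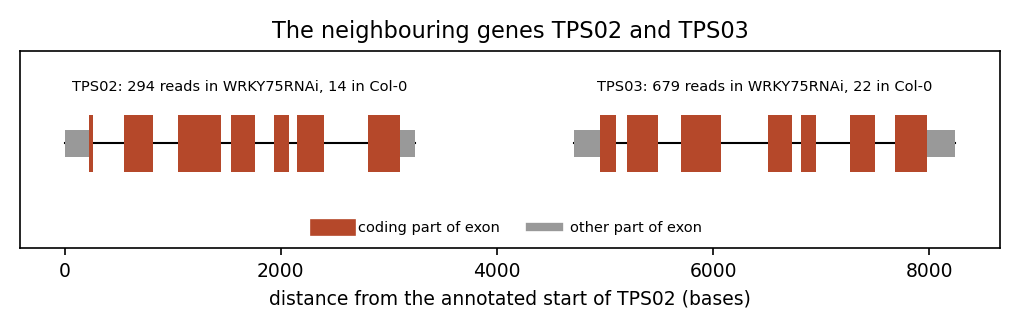
Exons of TPS02 and TPS03 in TAIR10.1, drawn by distance in bases from the annotated start of TPS02; tall boxes are coding, low boxes are other exon parts, and lines are introns. The 2 genes run in the same direction 1474 bases apart, with 294 and 679 reads in WRKY75RNAi against 14 and 22 reads in Col-0.

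CHAT (chr3:828235-829926), the last step of the green leaf volatile route, had 293 reads in WRKY75RNAi and 10 reads in Col-0, or 4.81 and 0.151 RPKM. The log2 ratio was 4.99 (interval 4.09 to 6.07), which overlaps those of TPS03 and TPS02, so these 3 ratios cannot be ordered. HPL1 (chr4:8835368-8838676) belongs to an earlier step of the route, with the reductase between it and CHAT, though its Col product is annotated as inactive. It had 1582 reads in WRKY75RNAi and 313 reads in Col-0, or 13.1 and 2.38 RPKM. HPL1 was 5.49-fold higher, with a log2 ratio of 2.46 (interval 2.28 to 2.64), below the intervals of the other 3. By level, HPL1 stood 2.72 times above CHAT in WRKY75RNAi and 15.7 times above it in Col-0. On spliced lengths (1870 bases for HPL1, against 3181 deposited) these ratios were 4.60 and 26.7.

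TPS04 (chr1:22523635-22528836) was the most abundant of the 5 and the one with the smallest ratio. It had 36109 reads in WRKY75RNAi and 18896 reads in Col-0, or 183 and 88.4 RPKM. Its log2 ratio of 1.05 (interval 1.03 to 1.08) lies just inside the limit of the deposited tables, where the smallest absolute log2 ratio is 1.001; genes beyond that limit are not analysed here. Scaling the libraries by the reads in the rows of the tables, instead of by the totals behind the RPKM values, lowers every log2 ratio by the same amount and gives a shift of -0.17. TPS04 is then at 0.88, under 2-fold, while the other 4 genes stay at or above 2.28. The reads used for this scaling come from transcripts selected by their ratio, so the shift is no independent check of the library totals.

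**Figure D2:**
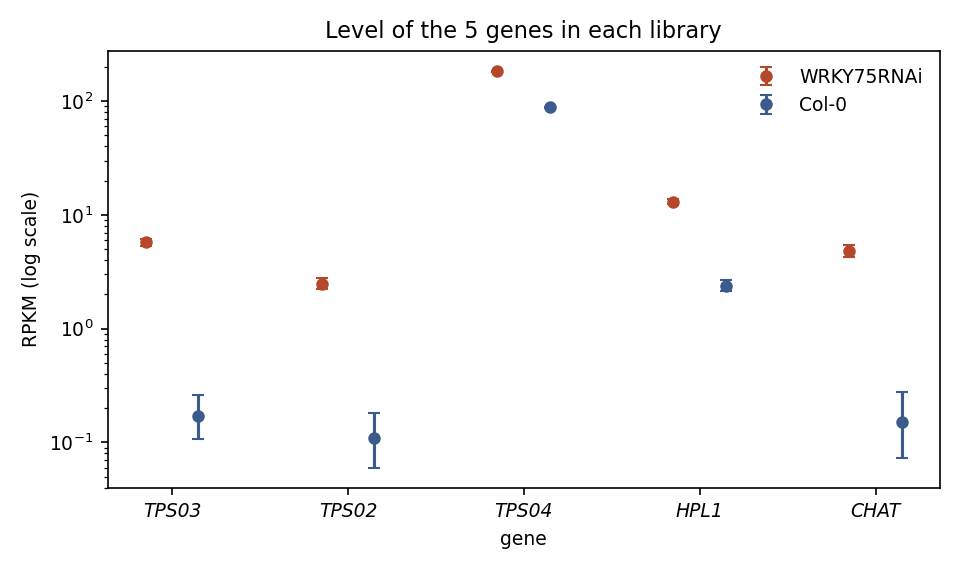
RPKM on a log axis for TPS03, TPS02, TPS04, HPL1 and CHAT in the WRKY75RNAi library (left point of each pair) and the Col-0 library (right point), with exact Poisson 95% intervals of the reads as bars. TPS04 is at 183 and 88.4 RPKM, while TPS03, TPS02 and CHAT are under 0.2 RPKM in Col-0.

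Ordered by RPKM, the levels in WRKY75RNAi were TPS04, HPL1, TPS03, CHAT and TPS02. The counting intervals of neighbours in that order met for 1 pair only: TPS03 had an interval of 5.32 to 6.19 RPKM and CHAT one of 4.28 to 5.40 RPKM. In Col-0 the order was the same, but TPS03, CHAT and TPS02, at 0.171, 0.151 and 0.109 RPKM, had overlapping intervals and cannot be ordered. On spliced lengths from the annotation, TPS02 moves above CHAT in Col-0 (0.172 and 0.152 RPKM on spliced length) and the order in WRKY75RNAi stays. TPS04 stood 32.0 times above TPS03 in WRKY75RNAi and 516 times above it in Col-0. It held 92.7% of the reads of the 5 genes in WRKY75RNAi and 98.1% in Col-0, and without it the other 4 had 2848 and 359 reads together. The deposited length was 5174 bases for TPS04, against 2926 spliced bases and a genomic span of 5202, so it takes in introns. For HPL1 it was 3181, against 1870 spliced and a span of 3309. For CHAT it was 1600, against 1593 spliced and a span of 1692. The choice of length thus moves levels between genes but no ratio between libraries.

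Among the 1150 higher loci with reads in both libraries, the ratio of TPS03 ranked 3, that of CHAT 5, TPS02 13, HPL1 199 and TPS04 1055. The median log2 ratio of these 1150 loci was 1.49. By RPKM in WRKY75RNAi, TPS04 ranked 30 of 1231 and TPS02 510. These ranks rest on the values that chose the genes. In whole leaves, more RNA per cell and more cells that make it cannot be told apart.

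**Figure D3:**
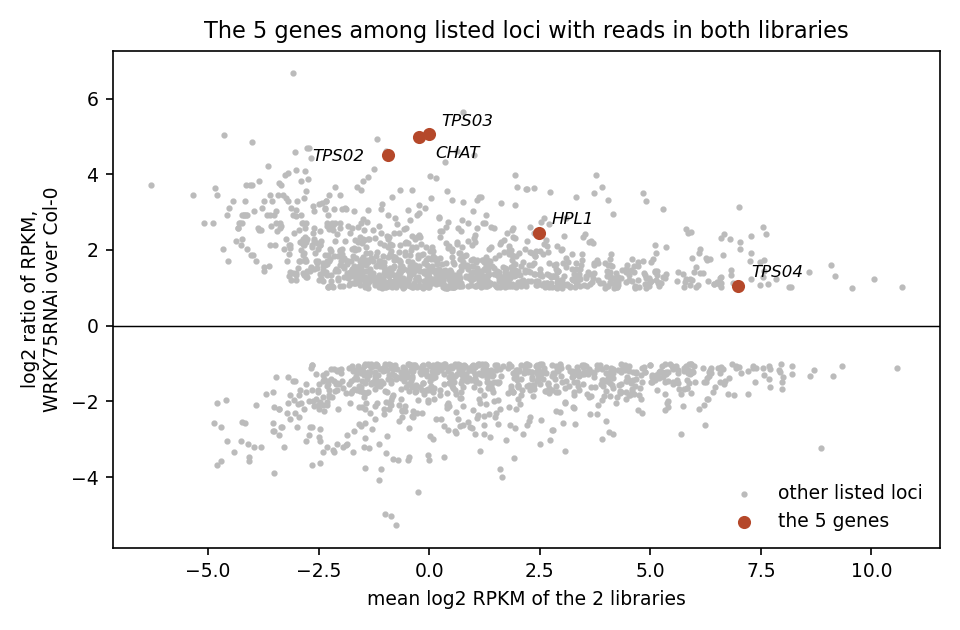
Each point is 1 of 2000 listed loci with reads in both libraries, by the mean log2 RPKM of the 2 libraries and the log2 ratio of WRKY75RNAi over Col-0; the 159 loci at 0 reads in a library are left out. The 5 genes (large points) run from TPS03 at 5.07 to TPS04 at 1.05, and the empty band around 0 is the authors' selection.

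Beyond the 3 terpene synthases above, 1 other member of the family was listed. Of 32 terpene synthase genes, 4 were listed as higher, 0 as lower and 28 were not listed; over all 31475 transcript models that the authors tested, 4.32% were listed as higher and 3.17% as lower. The rule for the 5 genes used this contrast, so nothing is read from the count. The further gene was TPS10 (AT2G24210), a monoterpene synthase gene, with 41 reads in WRKY75RNAi and 6 reads in Col-0 (0.337 and 0.0454 RPKM; log2 ratio 2.89, interval 1.65 to 4.42). Its coding sequence is 69.5% identical to that of TPS03. TPS04 is more distant, with 60.4% identity to TPS03. The median log2 ratio of the 4 listed synthases was 3.70.

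The examined genes that supply the substrates of these synthases or convert their products were not listed. As 4.32% of all tested models were listed as higher and 3.17% as lower, 0 in lists this short says little. The 7 examined genes of the plastid methylerythritol phosphate route, from DXS1 to ISPH, had 0 listed members in either direction. AT3G21500, outside that list and annotated as a 1-deoxy-D-xylulose 5-phosphate synthase, was listed, and its values were not examined. The 9 examined genes of the mevalonate route, among them HMG1 and HMG2, had 0 listed members. So did the 7 isomerase and prenyl diphosphate synthase genes examined, among them FPS1 and FPS2. The 5 terpene-modifying cytochrome P450 genes examined, including CYP82G1, whose enzyme turns the TPS04 product into TMTT, also had 0 listed members. This list holds CYP76C1, CYP76C2 and CYP76C3 but not every gene of their subfamily. AT1G33720 and AT1G33730, annotated as members of that subfamily, were listed, and their values were not examined. In the list of triterpene cyclases and squalene enzymes, 3 of 15 were listed as higher and 0 as lower, beside 4.32% and 3.17% of all tested models. These counts hold for the 15 genes only. Outside them, AT4G34650, annotated as squalene synthase 2, and the terpenoid cyclase family genes AT1G78950 and AT1G66960 were listed, and their values were not examined. The squalene epoxidase genes SQP2 (AT5G24140) and SQP1 (AT5G24150) had 69 and 134 reads in WRKY75RNAi, against 14 and 52 reads in Col-0, with log2 ratios of 2.42 and 1.49. The cyclase gene PEN1 (AT4G15340) had 8 reads in WRKY75RNAi and 0 in Col-0, which leaves its level close to the counting limit. Short stretches of these 3 genes recur elsewhere in the genome, at most 0.649% of windows of 36 bases.

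In the green leaf volatile route the listed genes sit, by gene family, at 4 different steps. Of its 11 genes, 4 were in the higher table and 0 in the lower one, beside shares of 4.32% and 3.17% over all tested models. HPL1 and CHAT, 2 of the 4, were picked from the higher table in the first place, so the count is only a description. LOX2 (AT3G45140), the plastid lipoxygenase, had 353796 reads in WRKY75RNAi and 189354 reads in Col-0, a log2 ratio of 1.02. CHR (AT4G37980, also named ELI3-1), which encodes a reductase of cinnamaldehyde and hexenal, had 71.4 RPKM in WRKY75RNAi and 16.4 RPKM in Col-0, from 5594 and 1395 reads. Its log2 ratio was 2.12 (interval 2.04 to 2.21). Along the route the log2 ratios were thus 1.02 for LOX2, 2.46 for HPL1, 2.12 for CHR and 4.99 for CHAT. HPL1 of Col is annotated as inactive, so these ratios do not stand for a working route. The other lipoxygenase genes LOX1, LOX3, LOX4, LOX5 and LOX6 and the desaturase genes FAD7 and FAD8, which make linolenic acid in plastids, were not listed. The median of the 4 was 2.29.

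**Figure D4:**
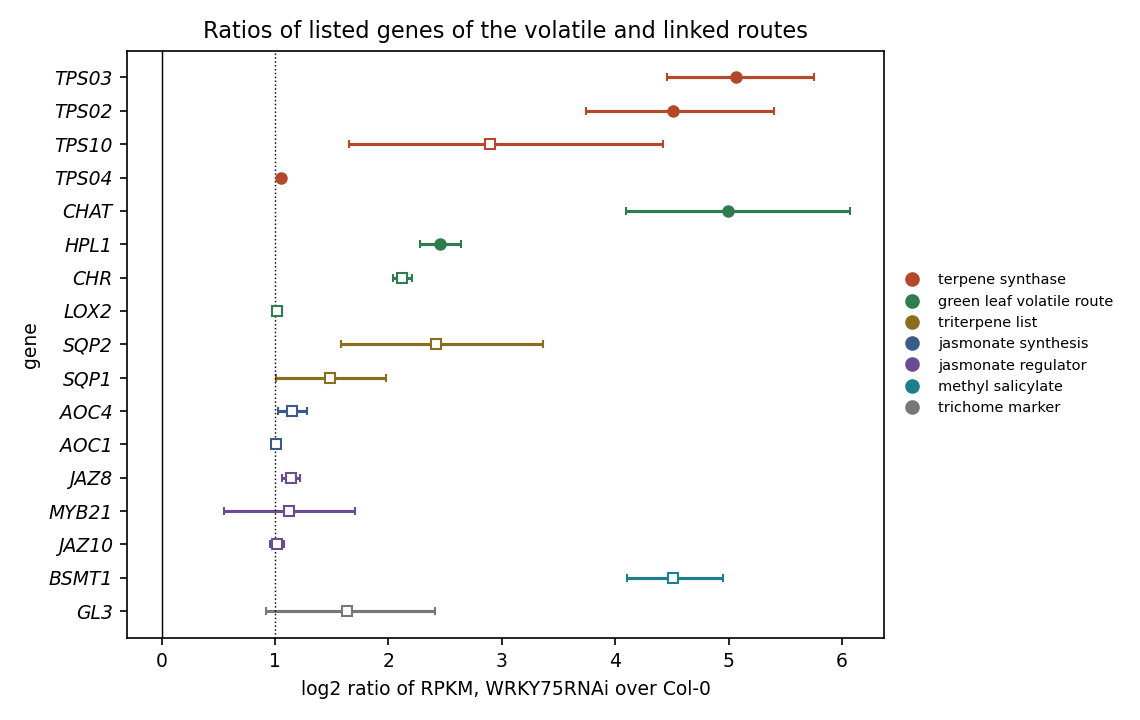
Log2 ratio of RPKM, WRKY75RNAi over Col-0, for listed members of the gene lists, with exact 95% intervals of the read ratio; filled circles are the 5 genes, open squares other genes, colours mark the list, and the dotted line is a log2 ratio of 1. PEN1, with 0 reads in Col-0, is left out. TPS03, CHAT, TPS02 and BSMT1 lie above 4, and LOX2, AOC1 and JAZ10 lie near 1.

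The other branch from the same hydroperoxide leads to jasmonate. The counts that follow stand beside 4.32% of all tested models listed as higher and 3.17% as lower. Of 9 genes of that branch, the allene oxide cyclase genes AOC1 (AT3G25760, log2 ratio 1.01) and AOC4 (AT1G13280, 1552 reads in WRKY75RNAi and 758 in Col-0, log2 ratio 1.15) were listed as higher and 0 as lower. AOS, which encodes the enzyme that would compete with a working hydroperoxide lyase for its substrate, was not listed. Of windows of 36 bases in AOC1, 4.46% recur elsewhere in the genome, so some of its reads may be shared. Of 18 jasmonate regulator genes, 3 were listed as higher and 0 as lower: the repressor genes JAZ8 (AT1G30135, 1.14) and JAZ10 (AT5G13220, 1.02) and the transcription factor gene MYB21 (AT3G27810). MYB21, known for control of terpene synthases in flowers, had 80 reads in WRKY75RNAi and 40 reads in Col-0 (log2 ratio 1.12, interval 0.55 to 1.71), and a listed gene on the opposite strand overlaps it over 987 bases. Annotated genes on the opposite strand also overlap JAZ10 over 71 bases, BSMT1 over 79 and GL3 over 36, and with the strand setting unknown their reads there cannot be told apart. MYC2, MYC3, MYC4 and COI1 were not listed. Of 4 genes for volatile methyl esters and apocarotenoids, the methyl salicylate gene BSMT1 (AT3G11480) was listed, as higher, with 1048 reads in WRKY75RNAi and 50 reads in Col-0 (log2 ratio 4.51).

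**Figure D5:**
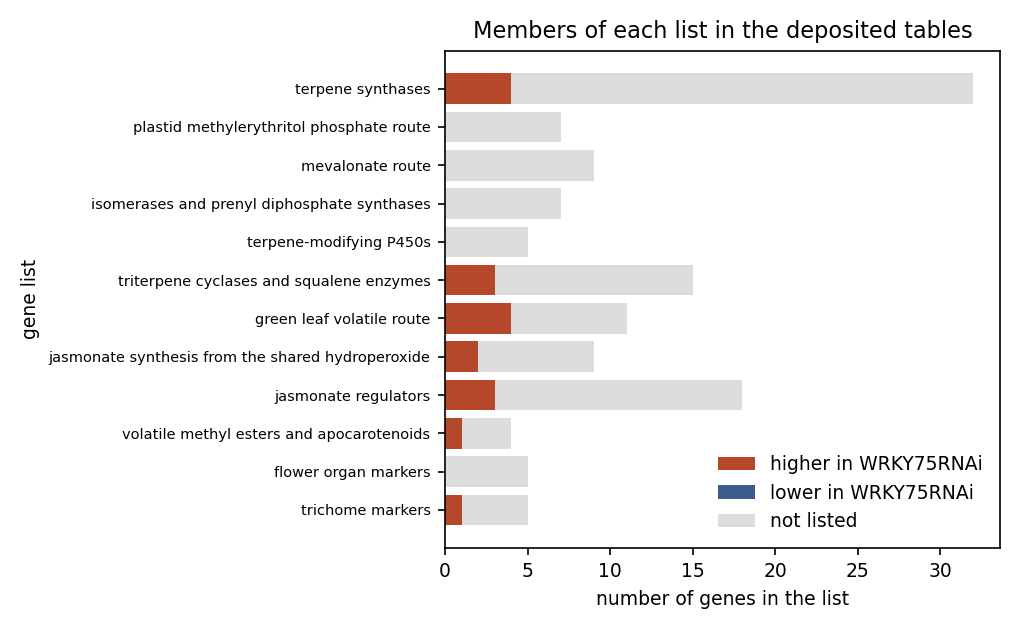
Number of genes of each list that the deposited tables hold as higher or lower in WRKY75RNAi or that are not listed. Some lists leave out genes of the same families. The higher table holds 4 of 32 terpene synthases, 3 of which were picked from it, and 4 of 11 genes of the green leaf volatile route, 2 of which were picked from it; none of the lists has a lower member, and 5 lists have no listed member.

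Markers of other organs and cells were examined because TPS03 transcripts are also known from flowers. The counts stand beside 4.32% of all tested models listed as higher and 3.17% as lower. Lists of 5 genes are too short to be told from these shares. Of the flower organ genes AP1, AP3, PI, AG and SEP3, 0 of 5 were listed, and as only selected transcripts are in the tables their levels are not known. The trichome genes examined were GL1, GL2, GL3, TRY and ETC1, and trichome regulators outside this list were not examined. Of these, 1 of 5 was listed, as higher. GL3 (AT5G41315), a bHLH regulator of leaf hairs, had 63 reads in WRKY75RNAi and 22 reads in Col-0 (log2 ratio 1.64, interval 0.92 to 2.41). Its part in the values of the 5 genes was not tested.

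The genes on either side of the 5 were looked up as well. Of 8 flanking protein-coding genes outside the set, 3 were listed as higher and 0 as lower, beside shares of 4.32% and 3.17% over all tested models. Next to TPS03, 682 bases away, AT4G16745, an exostosin family gene, had 940 reads in WRKY75RNAi and 410 reads in Col-0 (log2 ratio 1.32, interval 1.15 to 1.49). NAC025 (AT1G61110), a transcription factor gene 5342 bases from TPS04, had 48 reads in WRKY75RNAi and 2 reads in Col-0 (log2 ratio 4.70, interval 2.77 to 7.79), and AT4G15430, which lies 3794 bases from HPL1, had 40 and 17 reads.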

How the data were processed

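Bowtie is named as the aligner and TAIR10 as the genome in the submitters' processing notes, while versions, the read counter, strand handling and filters were not given in the sources used here. For 1360 higher and 998 lower transcript models the deposited tables hold raw read counts and the authors' RPKM, a log2 ratio (WRKY75RNAi over Col-0), a false discovery rate and a p-value. Deposited p-values compare 1 library with 1 library and were used only to recover the number of tested models, 31475, for which implied ranks lay on average 0.00231 from a whole number over 609 rows, against 0.120 for the next best number.

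Library totals were recomputed as the median of reads over RPKM times length. Ratios were recomputed from RPKM without a pseudocount; they equal the deposited ones to within 7.29e-08. The row with no gene identifier held 0.0384% of the WRKY75RNAi total and 0.103% of the Col-0 total and was left out. Gene models, neighbours and sequences come from RefSeq TAIR10.1, matched by locus (2147 of 2159 matched); the tables carry no coordinates. Proteins are not shown and coding sequences were compared instead. The genes and lists were chosen with earlier results of these data known, and some lists leave out genes of the same families. Named are the 5 genes, WRKY75, listed members of each list (at most 4) and, per gene, the higher locus nearest in RPKM; flanking genes and acyltransferases were added later. Intervals were tested on simulated independent Poisson reads. That is the counting error they assume, so the simulation says nothing of PCR copies or of spread between plants. Python 3.11.15, scipy 1.17.1 and Biopython 1.88 were used.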

Additional observations from a re-analysis of the deposited data

How the results depend on the processing

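No setting turned the direction of any of the 5 genes or of WRKY75. Adding a pseudocount of 0.1 RPKM lowered the log2 ratio of TPS03 to 4.43, that of TPS02 to 3.63 and that of CHAT to 4.29, and 1 RPKM gave 2.52 for TPS03, 1.65 for TPS02, 2.34 for CHAT and 2.06 for HPL1, since a pseudocount weighs most on low levels. Scaling by the reads of the listed transcripts, which were selected by their ratio, gave 0.88 for TPS04 and -1.89 for WRKY75. With the limit on the log2 ratio raised to 2, the genes listed as higher became 0 of 2 for jasmonate synthesis, 0 of 3 for jasmonate regulators and 0 of 1 for trichome markers; counts of the other lists stayed within 1.5 times. A minimum of 10 reads in each library takes TPS10 out, which leaves 3 terpene synthases. Summing the listed models of TPS03 gave 5.24. No paired analysis was possible because there is 1 library per genotype. Depth limits the Col-0 levels of TPS03, TPS02 and CHAT, which rest on 10 to 22 reads.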

Other observations

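CHAT belongs to a family of acyltransferases with a shared HXXXD motif, which also act in waxes, cutin and phenolic esters. Among 59 genes with that family name in the annotation, CHAT included, 10 were listed as higher and 2 as lower. Over all tested models the shares are 4.32% higher and 3.17% lower, and the count of lower members is near its share. The family was looked up after the values were seen. CER2 (AT4G24510), a gene of wax synthesis, had 4097 reads in WRKY75RNAi and 1640 reads in Col-0 (log2 ratio 1.44). DCF (AT3G48720), which feruloylates cutin, had 1513 and 768 reads (1.10), and AT5G02890 had 97 and 10 reads (3.40). AT5G42830 was the lower member with reads in both libraries, with 685 reads in WRKY75RNAi and 2493 reads in Col-0 (-1.74). CHAT had the highest ratio among the 9 higher members with reads in both libraries.

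The genes of the higher table whose levels in the 2 libraries lay nearest to those of the 5 genes, by distance on the log2 RPKM scale, belong to other families. With only 2 libraries this likeness says little. TPS02 lay nearest to KCS2 (AT1G04220), a fatty acid elongation gene, at 2.52 RPKM in WRKY75RNAi and 0.103 RPKM in Col-0 (distance 0.0889). TPS04 lay nearest to the serine hydroxymethyltransferase gene SHM4 (AT4G13930; 174 and 83.5 RPKM, distance 0.11) and HPL1 to ASG8 (AT2G40475; 12.2 and 2.23 RPKM, distance 0.14). TPS03 and CHAT had no near match: AT4G10290, a cupin family gene (5.70 and 0.285 RPKM), was 0.73 from TPS03, and ILL5 (AT1G51780; 3.95 and 0.257 RPKM) was 0.81 from CHAT.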
